A study of Mus musculus with 4 samples.

Results

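Cluster 12 is 1 of 23 clusters of nuclei in a single-nucleus RNA data set of mouse kidney cortex, and it carries the working label of a proximal tubule cluster of low depth. Its members are the 4 columns of the deposited expression matrix that the authors numbered 12, one for each library. Together they hold 692 of 26144 nuclei, or 2.65%. The study asked how the transcriptome of the cortex differs when Klf4 is depleted in endothelial cells, with Nos3 present or absent. The 4 libraries, all of C57BL/6J kidney cortex, carry the genotypes Klf4deltaECNos3-/- (written DKO in the labels and below), Nos3-/-, Klf4deltaEC and Klf4flox/flox, the last being the control. The control thus carries floxed Klf4 alleles, and the sources used here do not say whether the Nos3-/- animals do. Each genotype has 1 library. The labels give neither the number of mice behind a library nor their age or the Cre driver. Genotype names below are those on the libraries.

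The proximal tubule takes back most of the filtered sodium, glucose, amino acids, phosphate and bicarbonate. Its early segments, S1 and S2, carry high-capacity transporters and the endocytic receptors megalin and cubilin, whereas the straight S3 segment holds organic ion transporters and much of the detoxification machinery. The cells are rich in mitochondria, draw energy mainly from fatty acids, and make glucose and ammonia. Their cytoplasmic mRNA is dominated by a few very abundant transcripts, such as Kap and Gpx3. A droplet of isolated nuclei can also hold free cytoplasmic RNA from the tissue.

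Each value below is a level: the mean over a cluster's nuclei of UMIs per 10000, as the authors deposited it, where a UMI is 1 counted molecule. The number of nuclei and UMIs behind each column was recovered from the steps between low values. Cluster 12 held 118 nuclei in the DKO, 253 in the Nos3-/-, 180 in the Klf4deltaEC and 141 in the control library. These were 2.15% (95% exact binomial interval 1.78 to 2.57), 3.61% (3.19 to 4.08), 2.62% (2.25 to 3.02) and 2.08% (1.76 to 2.45) of the nuclei in the DKO, Nos3-/-, Klf4deltaEC and control libraries. Intervals here and below cover counting error only. A cut on UMIs or a difference in depth could set these shares, so no order is read from them.

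Depth set cluster 12 apart from the other proximal tubule clusters, numbered 0, 1, 3, 5 and 6. Its median UMIs per nucleus were 872 in the DKO, 1126 in the Nos3-/-, 833 in the Klf4deltaEC and 860.5 in the control library. The other proximal tubule clusters had medians of 7445, 3033, 5589 and 6478 in the DKO, Nos3-/-, Klf4deltaEC and control libraries. Cluster 12 was the shallowest of the 23 clusters in 4 of 4 libraries. It reached 37.1% of the depth of the other proximal tubule clusters in the Nos3-/- library, where those clusters were themselves shallow, against 11.7% to 14.9% in the other 3 libraries. A gene seen as 3 UMIs in cluster 12 has a level of 0.298 in the DKO, 0.108 in the Nos3-/-, 0.203 in the Klf4deltaEC and 0.258 in the control library. Values near these are not distinguishable from 0 at this depth.

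**Figure D1:**
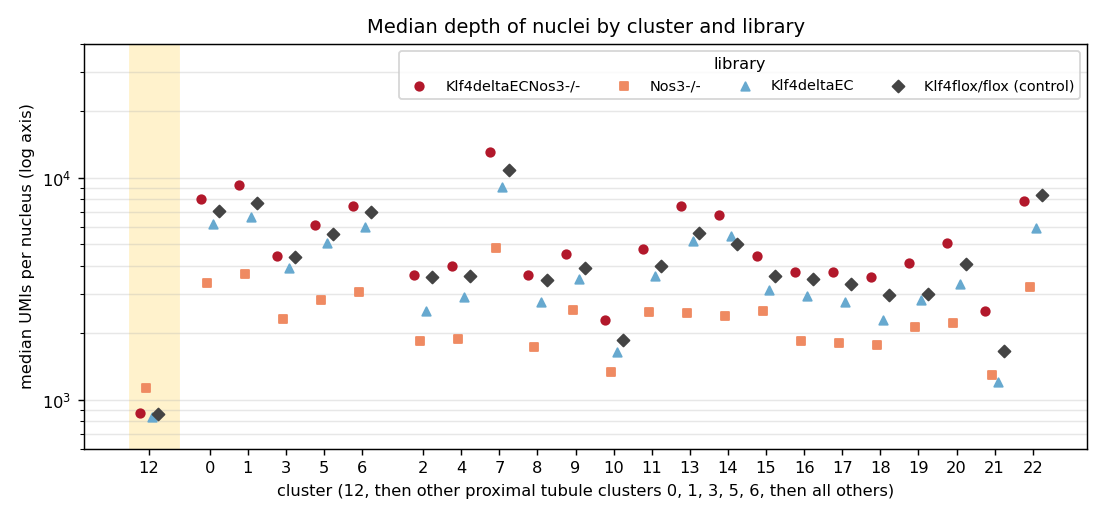
Median UMIs per nucleus of the 23 clusters in each of the 4 libraries, on a log axis, with cluster 12 shaded at the left, then the other proximal tubule clusters 0, 1, 3, 5 and 6, then the remaining clusters. Cluster 12 sits lowest in every library, at 833 to 1126 UMIs, and the other proximal tubule clusters lie closest to it in the Nos3-/- library.

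The genes that led cluster 12 over the other 22 clusters, by mean log2 ratio over the libraries, were Kap, Gpx3, Fth1, Ttc36, Gpx1, Ftl1, Napsa, Cyba, mt-Nd5 and Chchd10. Of the 6 genes that mark the label, Slc5a2, Napsa, Gpx3, Kap, Fth1 and Ttc36, all but Slc5a2 are in that list. Slc5a2, the glucose transporter SGLT2 of S1, was at 4.91 in the DKO, 2.82 in the Nos3-/-, 11.5 in the Klf4deltaEC and 6.71 in the control library, against 3.70 to 4.33 in the other proximal tubule clusters. It was therefore below those clusters in the Nos3-/- library and above them in the other 3, and cluster 3 held its highest level. Because the clusters were built from these genes, such values describe the cluster and test nothing.

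Kap, an androgen-responsive secreted protein of the proximal tubule encoded at chr6:133849851-133853762 (mm10, minus strand), had the widest range of levels between libraries among the 6 markers, although Fth1 varied more by ratio. Its level was 258 in the DKO (95% exact Poisson interval 248 to 268), 26.6 in the Nos3-/- (24.7 to 28.6), 121 in the Klf4deltaEC (116 to 127) and 98.1 in the control library (92.4 to 104). In the other proximal tubule clusters it was 24.4, 6.07, 21.3 and 16.7 in the DKO, Nos3-/-, Klf4deltaEC and control libraries. The DKO library was highest and the Nos3-/- library lowest in both. Gpx3, the secreted glutathione peroxidase that the proximal tubule supplies to plasma (chr11:54902453-54910377, plus strand), was at 106 in the DKO, 50.7 in the Nos3-/-, 51.7 in the Klf4deltaEC and 44.7 in the control library. The other proximal tubule clusters spanned only 10.6 to 14.4 for Gpx3, without the high DKO value. Fth1, the ferritin heavy chain (chr19:9980598-9985098, plus strand), was at 56.6 in the DKO, 4.65 in the Nos3-/-, 19.8 in the Klf4deltaEC and 13.9 in the control library, against 4.81, 0.918, 3.59 and 2.44 in the other proximal tubule clusters of the DKO, Nos3-/-, Klf4deltaEC and control libraries. Napsa, an aspartic protease of lysosomes, was at 25.2 in the DKO but only 5.14 to 7.82 in the other 3 libraries, against 3.42 to 3.83 in the other proximal tubule clusters. Ttc36, a tetratricopeptide repeat protein, was at 10.4 in the DKO and 2.28 to 4.31 in the other 3 libraries, against 0.769 to 1.15. For Kap, Gpx3, Fth1, Napsa and Ttc36, every library of cluster 12 thus lay above the other proximal tubule clusters of the same library.

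The 60 bases before a transcription start of RefSeq's promoter table (GRCm38.p6) are shown for the 3 of these 6 genes that the table holds, since they are the first 3 of the leading genes and all highest in the DKO library. The gene coordinates above are the outermost ends of any annotated transcript, so the windows, which lie before the start of 1 transcript, fall within them. For Fth1 the table holds 2 starts, and the one nearest the start of the annotated principal transcript is shown. Capitals mark a TATAAA match on the strand of the gene. The Kap window is chr6:133853668-133853727 (minus strand), the Gpx3 window chr11:54902794-54902853 (plus strand) and the Fth1 window chr19:9982586-9982645 (plus strand).
Kap: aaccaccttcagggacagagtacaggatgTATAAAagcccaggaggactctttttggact
Gpx3: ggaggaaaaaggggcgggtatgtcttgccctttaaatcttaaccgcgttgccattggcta
Fth1: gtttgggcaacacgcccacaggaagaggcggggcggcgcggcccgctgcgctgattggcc
The Kap match begins 31 bases before the start, and the other windows hold none. TATAAA occurs on the gene's strand in 2.87% of the 32851 windows of that length and on either strand in 3.92%. The match is a description of letters, not of a bound site.

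**Figure D2:**
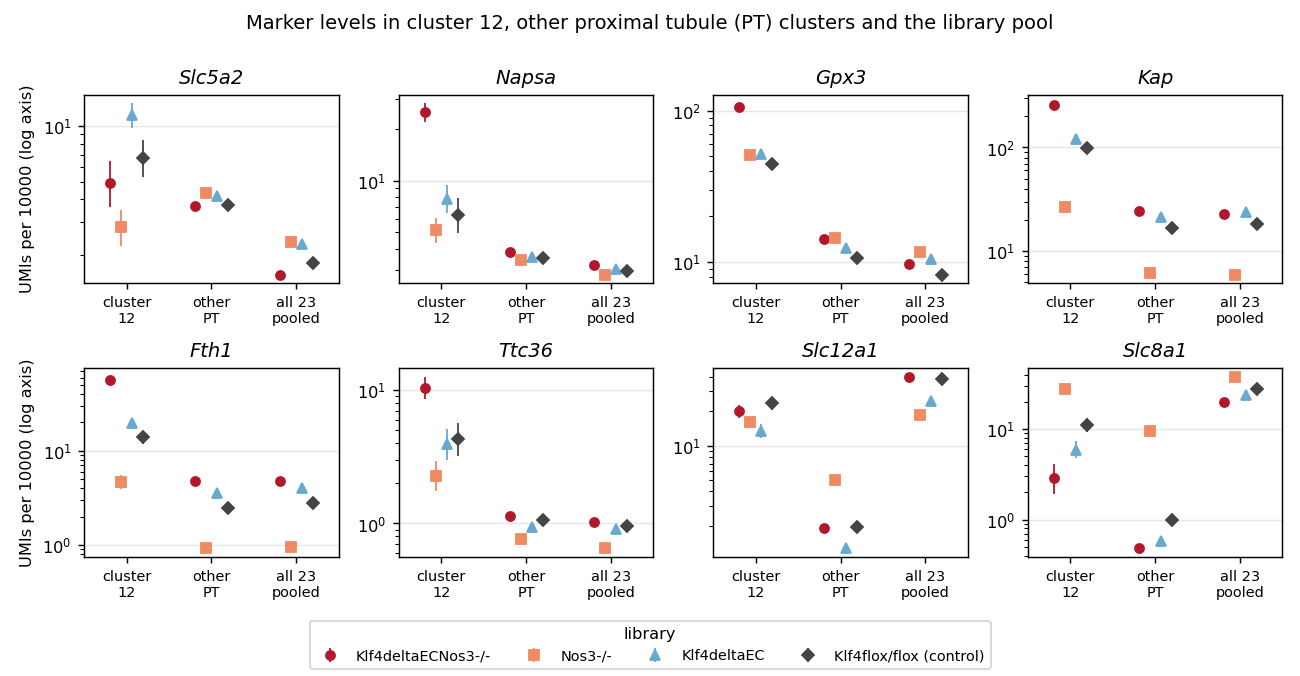
Levels (UMIs per 10000) of the 6 marker genes, of Slc12a1, a marker of the thick ascending limb, and of Slc8a1, a marker of the connecting tubule, in cluster 12 in the other proximal tubule clusters and in the pool of all 23 clusters of each library, on a log axis; bars are 95% exact Poisson intervals. Kap, Gpx3, Fth1, Napsa and Ttc36 lie higher in cluster 12 in all 4 libraries, Slc5a2 in 3, and Slc12a1 and Slc8a1 also lie higher in all 4.

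The data went partly against the label. Slc12a1, the sodium-potassium-chloride transporter of the thick ascending limb, was at 20.0 in the DKO, 16.2 in the Nos3-/-, 13.6 in the Klf4deltaEC and 23.5 in the control library. The other proximal tubule clusters had 1.90, 4.99, 1.27 and 1.96 in the DKO, Nos3-/-, Klf4deltaEC and control libraries, and the pool of all nuclei of a library had 40.3, 18.6, 24.8 and 38.5. Over genes, the levels of cluster 12 were most like those of cluster 3 in the DKO, Klf4deltaEC and control libraries, with Pearson's r of 0.63, 0.81 and 0.76 across log2 levels, and most like cluster 7 in the Nos3-/- library, with r of 0.87. With the pool of all nuclei r was 0.59 in the DKO, 0.90 in the Nos3-/-, 0.78 in the Klf4deltaEC and 0.78 in the control library. These r values describe genes within a library, between clusters of unlike depth, and are no test. The nuclei are therefore called by their cluster number.

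Against the other proximal tubule clusters, cluster 12 was high in mitochondrially encoded, respiratory chain and ribosomal transcripts and in markers of other nephron segments. A few abundant proximal mRNAs, such as Kap and Gpx3, were also high. The place of an RNA in the cell was not measured. Summed markers of cells outside the nephron were also above those clusters, at low levels. Cluster 12 was low in genes such as Glt1d1, Fgf1 and Ghr. Ratios are log2 of cluster 12 over the mean of the other proximal tubule clusters, each with 0.1 added, for the 3442 genes that reached a level of 0.5 in either one in every library. With 1 library per genotype, a gene is called higher or lower where its median ratio over the 4 libraries reached 1 in size with the same sign in all 4. By that rule 210 genes (6.1%) were higher and 143 (4.15%) lower, and the median over all 3442 genes was -0.14. In single libraries the share past a ratio of 1 was 22.6% higher and 13.2% lower in the DKO, 6.43% and 3.86% in the Nos3-/-, 14.8% and 5.49% in the Klf4deltaEC, and 17.3% and 8.39% in the control library. The Nos3-/- library had the smallest shares. Depth differed least there, and its cluster 12 column also held the most nuclei and UMIs. The part of either in the shares was not tested. Only 118 genes (3.43%) were past 1 upward in each of the 4 libraries, and 11 (0.32%) downward.

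The higher genes fell into separate kinds once the pool of all nuclei was used as a second yardstick. Of the 210, 12 were mitochondrially encoded and 198 nuclear. At least 1 log2 unit above the pool were 120 genes, whereas 63 were below it, although above the other proximal tubule clusters. The pool is a mean, so a gene below it can still exceed single clusters of other cell types. All 143 lower genes were below the pool too. The 120 genes above the pool included Kap, Gpx3, Fth1 and the mitochondrial transcripts, while the 63 genes below it included Slc12a1, Egf, Slc12a3, Slc26a4, Kcnj1, Slc8a1 and Nr3c2, which mark or serve the thick ascending limb and the distal nephron.

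Gene length separated the same kinds. The higher nuclear genes at least 1 above the pool had a median span of 6.78 kb on mm10, of which 65.8% was intron, whereas the higher genes below the pool had 270 kb, of which 96.4% was intron. The lower genes had a median span of 93.6 kb and all genes compared 64.1 kb. Among genes under 5 kb, 43 of 67 were higher and 0 lower, with a median ratio of 1.61. That median was 2.25 in the DKO, 0.99 in the Nos3-/-, 1.53 in the Klf4deltaEC and 1.59 in the control library. Among genes of 5 to 20 kb, 63 of 368 were higher and 11 lower, and among genes of 20 to 100 kb 40 of 1870 were higher and 61 lower. Beyond 300 kb, 32 of 221 were higher and 23 lower, with a median of -0.32.

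**Figure D3:**
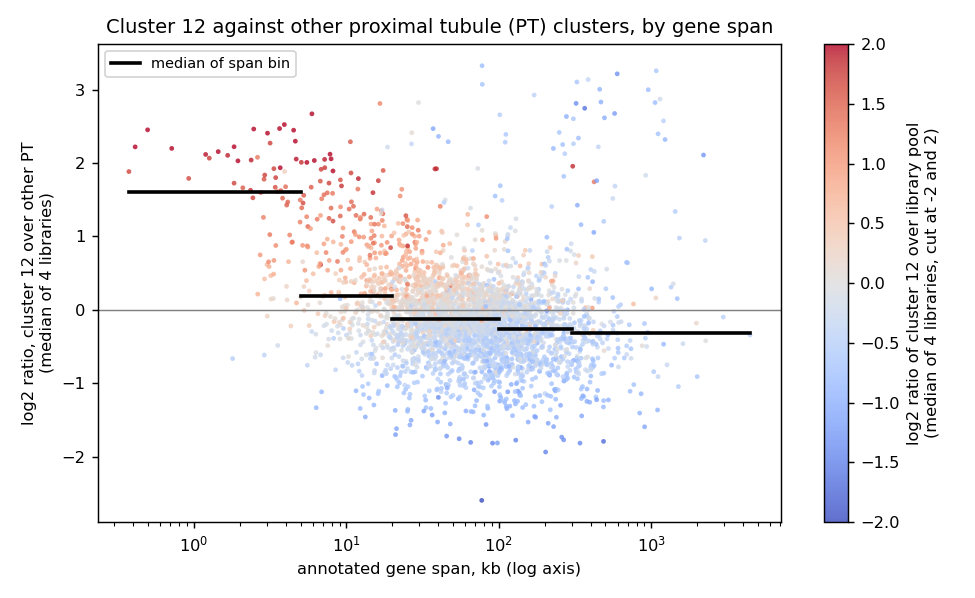
Median log2 ratio of cluster 12 over the other proximal tubule clusters for each gene, against the gene's span in kb on a log axis; colour is the median ratio of cluster 12 over the pool of all 23 clusters and black lines are medians of the span classes. Genes under 5 kb lie mostly above 0, with a median of 1.61, and the higher genes below the level of the pool lie at the long end.

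Mitochondrial RNA was higher in cluster 12 gene by gene. All 13 mitochondrially encoded genes were measured, 12 reached the minimum level and 12 were higher, with a median ratio of 2.36. Their summed level was 269 in the DKO, 102 in the Nos3-/-, 182 in the Klf4deltaEC and 221 in the control library, against 40.5, 17.9, 40.6 and 39.6 in the other proximal tubule clusters of the DKO, Nos3-/-, Klf4deltaEC and control libraries. The Nos3-/- library was lowest in both. As a share of the pool, cluster 12 stood at 399% to 562% and the other proximal tubule clusters at 83.0% to 88.7%. mt-Co1, the catalytic subunit of complex IV, was at 67.02 in the DKO, 25.4 in the Nos3-/-, 41.2 in the Klf4deltaEC and 64.3 in the control library, against 5.85 to 10.7. mt-Nd5, a proton-pumping subunit of complex I, was at 5.45 in the DKO and 1.80 to 2.64 in the other 3 libraries, against 0.322 to 0.494.

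Nuclear genes for the respiratory chain and the ribosome lay in the same direction. Of 32 listed nuclear respiratory genes, 13 reached the minimum level, 11 were higher and 0 lower, with a median of 1.84, and their sums were 62.3 in the DKO, 15.9 in the Nos3-/-, 43.1 in the Klf4deltaEC and 29.3 in the control library, against 7.51 to 11.5. Cox8a, a small subunit of complex IV, was at 11.7 in the DKO, 1.23 in the Nos3-/-, 6.34 in the Klf4deltaEC and 4.71 in the control library, against 0.348 to 1.14. Of 50 cytosolic ribosomal protein genes only 4 reached the minimum, and all 4 were higher, with a median of 2.08. The sum of the ribosomal genes was 45.9 in the DKO, 10.1 in the Nos3-/-, 23.05 in the Klf4deltaEC and 23.4 in the control library, against 3.67 to 7.89. The sources used here do not say how reads shared by near-identical copies were counted, so single ribosomal, ferritin and respiratory genes with many pseudogenes are uncertain. Gm42418, a noncoding gene that overlaps ribosomal RNA sequence, was at 104 in the DKO, 131 in the Nos3-/-, 64.3 in the Klf4deltaEC and 75.8 in the control library, against 12.8 to 52.8.

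Antioxidant and iron-storage transcripts were the next group. Of 16 listed glutathione and antioxidant genes, 11 reached the minimum, 6 were higher and 0 lower, with a median of 1.17. Their sum was 148 in the DKO, 68.0 in the Nos3-/-, 80.9 in the Klf4deltaEC and 69.6 in the control library, against 22.8 to 29.7 in the other proximal tubule clusters. Gpx3 made up most of each sum. Gpx1, the cytosolic glutathione peroxidase, was at 7.92 in the DKO, 1.65 in the Nos3-/-, 5.32 in the Klf4deltaEC and 3.67 in the control library, against 0.461 to 1.02. Prdx5, a peroxiredoxin, had a median ratio of 1.67, and Cat, the peroxisomal catalase, had 0.80 and so was not called. Of 9 ferritin and iron genes 5 reached the minimum and 2 were higher, Fth1 and Ftl1, the ferritin light chain. The list's median was -0.00, so the other iron genes did not share that direction. Ftl1 was at 23.6 in the DKO, 3.86 in the Nos3-/-, 8.76 in the Klf4deltaEC and 5.67 in the control library, against 1.16 to 3.33.

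Among abundant proximal mRNAs, those known to fill the cytoplasm of these cells, 17 of 20 reached the minimum, 12 lay above 0, 4 were higher (Gpx3, Kap, Fth1 and Ttc36) and 1 was lower, with a median of 0.37. Their sum was highest of the 23 clusters in 4 of 4 libraries. It was 551 in the DKO, 146 in the Nos3-/-, 290.2 in the Klf4deltaEC and 228 in the control library, against 107 to 138 in the other proximal tubule clusters. The list holds all 6 genes that mark the label, so its sum is not independent of them. Miox, the first enzyme of inositol breakdown, had a median ratio of 0.21 and Ass1, an enzyme of arginine synthesis, had -0.06.

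Transporters of the early segments were not among the higher genes. Of 16 listed S1 and S2 transporters 15 reached the minimum, 3 lay above 0, and 0 were higher or lower, with a median of -0.42 beside -0.14 for all genes. Their sum was 96.6 in the DKO, 90.1 in the Nos3-/-, 151 in the Klf4deltaEC and 118 in the control library, against 139.8, 136, 153 and 153 in the other proximal tubule clusters of the DKO, Nos3-/-, Klf4deltaEC and control libraries. Cluster 12 still ranked between the fourth and the sixth of the 23 clusters for this sum. Slc34a1, the main phosphate transporter, was at 40.5 in the DKO, 26.4 in the Nos3-/-, 61.0 in the Klf4deltaEC and 39.1 in the control library, against 51.1 to 58.9. Slc4a4, the basolateral bicarbonate transporter, was at 14.5 in the DKO, 20.7 in the Nos3-/-, 22.99 in the Klf4deltaEC and 21.8 in the control library, against 23.9 to 29.3. Slc5a2 was among the 3 transporters above 0, with a median ratio of 0.61.

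The endocytic genes and the S3 genes lay further down. Of 9 endocytic genes 7 reached the minimum, 3 lay above 0 and 0 were called, with a median of -0.68. Lrp2, which encodes megalin, was at 9.26 in the DKO, 19.3 in the Nos3-/-, 14.9 in the Klf4deltaEC and 9.57 in the control library, against 16.3 to 22.1. Cubn, which encodes cubilin, had a median ratio of -0.85. Of 12 S3 genes 8 reached the minimum, 0 were higher and 2 lower, with a median of -0.72. Slc7a13, an S3 amino acid transporter, had a median ratio of -0.69. This list depends on which proximal tubule cluster is taken, since its median was 2.41 against cluster 3 alone and 2.47 against cluster 5 alone.

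Metabolic lists lay close to the background of all genes. Of 10 genes of gluconeogenesis and ammoniagenesis 8 reached the minimum, 3 lay above 0 and 0 were called, with a median of -0.38. Pck1, the gatekeeper of gluconeogenesis, was at 9.72 in the DKO, 6.63 in the Nos3-/-, 9.69 in the Klf4deltaEC and 7.60 in the control library, against 11.2 to 14.9. Of 17 fatty acid oxidation genes 9 reached the minimum, 0 were higher and 1 lower, with a median of -0.40. By its sum, the gluconeogenesis list was above the other proximal tubule clusters in the DKO library, at 45.6 against 36.7. It was below them in the Nos3-/- (30.4 against 38.8), Klf4deltaEC (43.5 against 43.6) and control libraries (35.1 against 45.5). By their medians, neither list shared the direction of the mitochondrial transcripts. Enzymes of fuel use outside these lists are not covered by that statement.

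Markers of the thick ascending limb had the highest summed level among the lists of other cell types in all 4 libraries. Of 7 listed genes 3 reached the minimum and all 3 were higher, Slc12a1, Umod and Egf, with a median of 3.07. The summed level of the 7 was 50.2 in the DKO, 33.6 in the Nos3-/-, 30.4 in the Klf4deltaEC and 50.2 in the control library, against 5.16, 9.72, 3.51 and 4.65 in the other proximal tubule clusters of the DKO, Nos3-/-, Klf4deltaEC and control libraries. Cluster 12 therefore stood at 72.0%, 89.6%, 66.2% and 76.3% of the pool in the DKO, Nos3-/-, Klf4deltaEC and control libraries, whereas the other proximal tubule clusters stood at 7.07% to 25.9%. It reached only 7.16% to 14.9% of cluster 4, which held the highest sum in each library. Umod, the secreted uromodulin, was the exception that exceeded the pool. It was at 16.6 in the DKO, 2.84 in the Nos3-/-, 8.35 in the Klf4deltaEC and 11.6 in the control library, against 6.97, 2.08, 3.82 and 4.26 in the pool of those libraries.

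Markers of the distal convoluted tubule, connecting tubule, principal and intercalated cells were also below the pool, and lowest against it in the DKO library. Markers of the distal convoluted tubule stood at 38.7% of the pool in the DKO, 77.2% in the Nos3-/-, 53.0% in the Klf4deltaEC and 59.3% in the control library, with 2 of 5 genes past the minimum called higher and 0 lower. Connecting tubule and principal cell markers stood at 33.2% of the pool in the DKO, 74.9% in the Nos3-/-, 36.2% in the Klf4deltaEC and 52.3% in the control library, with both genes past the minimum higher. Intercalated cell markers stood at 46.4% of the pool in the DKO, 92.8% in the Nos3-/-, 49.6% in the Klf4deltaEC and 78.0% in the control library. Slc26a4, the anion exchanger pendrin, was the 1 intercalated gene past the minimum, with a median ratio of 2.36. Podocyte markers stood at 42.8% to 70.2% of the pool with 1 of 7 genes past the minimum. The 8 markers of the thin limb and urothelium lay the other way, above the pool. They summed to 6.19 in the DKO, 1.08 in the Nos3-/-, 4.24 in the Klf4deltaEC and 2.48 in the control library, or 369.6%, 145%, 343% and 187% of the pool in the DKO, Nos3-/-, Klf4deltaEC and control libraries. Only 1 of these 8 genes reached the minimum, and it was not called. For this list the other proximal tubule clusters themselves stood at 66.5% to 118% of the pool. The part of RNA from other cell types in any difference between cluster 12 and the other proximal tubule clusters was not tested.

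Markers of cells outside the nephron were at low levels, also in the pool, but their sums were above those of the other proximal tubule clusters in all 4 libraries. Those clusters had sums of 0.163 to 0.585 for endothelial markers and 0.0818 to 0.192 for stromal markers. For macrophage and lymphocyte markers they had 0.393 to 0.542. The 10 endothelial markers summed to 1.14 in the DKO, 2.23 in the Nos3-/-, 1.92 in the Klf4deltaEC and 3.42 in the control library, and none reached the minimum level in every library. Egfl7 was at 0 in all 4. The 11 stromal markers summed to 0.430 in the DKO, 0.693 in the Nos3-/-, 0.801 in the Klf4deltaEC and 2.13 in the control library. The 10 macrophage and lymphocyte markers summed to 1.14 in the DKO, 1.16 in the Nos3-/-, 1.63 in the Klf4deltaEC and 1.98 in the control library, with the T cell gene Cd3e at 0 in all 4. As a share of the pool, the DKO, Nos3-/-, Klf4deltaEC and control libraries stood at 72.3%, 97.3%, 85.1% and 168% for endothelial markers. The stromal markers stood at 46.7%, 74.2%, 78.3% and 250% of the pool in the DKO, Nos3-/-, Klf4deltaEC and control libraries, and the macrophage and lymphocyte markers at 103%, 150%, 197% and 259%. The control library was highest in each of these 3 lists, on sums of a few UMIs per 10000. The red cell genes Hba-a1, Hba-a2, Hbb-bs and Alas2 were at 0 in all 4, and the 7 cycling markers summed to 0.197 to 0.537.

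**Figure D4:**
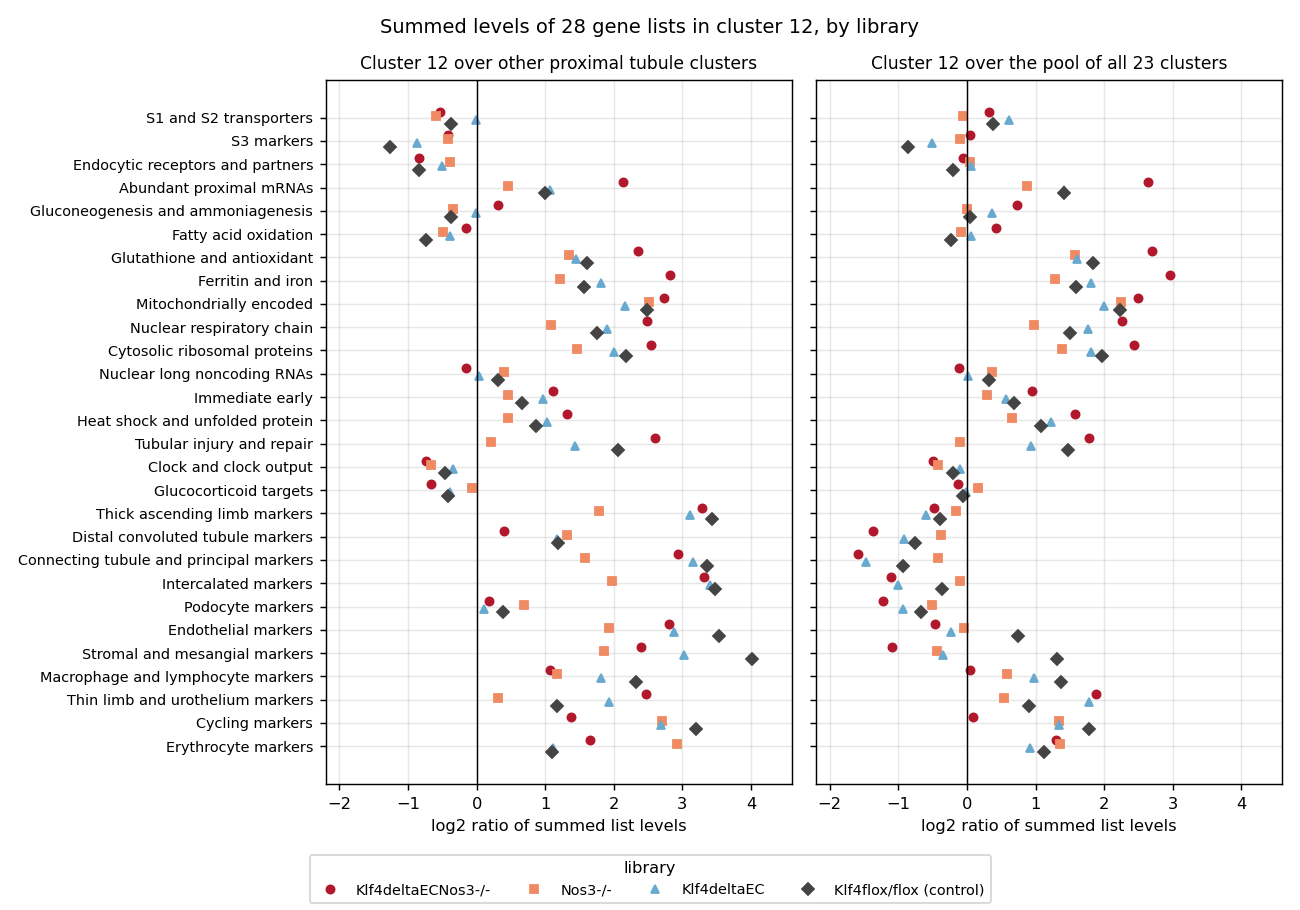
Log2 ratio of the summed level of each gene list in cluster 12 over the other proximal tubule clusters (left) and over the pool of all 23 clusters (right), 1 point per library. In the left panel, lists of mitochondrially encoded genes, respiratory chain, ribosome, ferritin and thick ascending limb markers lie to the right of 0 in all 4 libraries, and the endocytic list lies to the left in all 4.

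Among stress and injury lists, the called genes were few and abundant. Of 15 heat shock genes 6 reached the minimum, 4 were higher and 0 lower, with a median of 1.32. Hsp90ab1, a cytosolic chaperone, was at 6.22 in the DKO, 1.08 in the Nos3-/-, 2.80 in the Klf4deltaEC and 2.45 in the control library, against 0.450 to 1.58. Of 20 injury genes 3 reached the minimum and 1 was higher, Spp1, the secreted phosphoprotein osteopontin that distal tubules also make. Spp1 was at 16.5 in the DKO, 1.46 in the Nos3-/-, 8.02 in the Klf4deltaEC and 10.4 in the control library, against 0.375 to 1.36. The injury marker Havcr1, which encodes KIM-1, was at 0 in 3 of 4 libraries of cluster 12 and at 0.164 in the Klf4deltaEC library, under the level of 3 UMIs. The 3 of 15 immediate early genes past the minimum all lay above 0 and none was called, with a median of 0.50. The clock list had 4 of 15 genes past the minimum, 0 higher and 1 lower, with a median of -0.59. The 3 of 10 glucocorticoid targets past the minimum all lay below 0 with none called, and their median was -0.40.

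The noncoding RNAs of the nucleus had no common direction. Malat1, a noncoding RNA kept in the nucleus, was at 710 in the DKO, 925 in the Nos3-/-, 1003 in the Klf4deltaEC and 1111 in the control library, against 768, 657, 987 and 880.0 in the other proximal tubule clusters of the DKO, Nos3-/-, Klf4deltaEC and control libraries. Cluster 12 was below those clusters in the DKO library and above them in the other 3. Neat1, the scaffold RNA of paraspeckles, had a median ratio of -0.61. Of 10 nuclear noncoding RNAs 7 reached the minimum, 0 were higher and 1 lower, with a median of -0.26.

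The 15 genes with the highest median ratios were Slc12a1 (3.33), Erbb4 (3.26), Mecom (3.21), Cacnb2 (3.14), Slit2 (3.10), Egf (3.07), Phactr1 (3.00), Sox5 (3.00), Slc16a7 (2.93), Sgcz (2.87), Tmem117 (2.83), Tfap2b (2.82), Rbms3 (2.82), Prdm16 (2.81) and Umod (2.81). Mecom, Prdm16 and Tfap2b are transcription factors, and Erbb4 is a receptor of the epidermal growth factor family. Against the pool, all of these but Umod had a median below 0, the lowest being -1.37 for Prdm16 and -1.34 for Mecom.

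The 15 lowest were Glt1d1 (-2.60), AC163354.1 (-2.2), Gm42397 (-1.94), Fgf1 (-1.82), Pvt1 (-1.82), C330002G04Rik (-1.82), Gk5 (-1.81), Chrm3 (-1.79), Gsap (-1.78), Ghr (-1.77), Rnf24 (-1.76), 0610043K17Rik (-1.72), 4930533I22Rik (-1.70), Arhgap26 (-1.62) and Cntnap5a (-1.60). Ghr, the growth hormone receptor, was at 19.1 in the DKO, 66.2 in the Nos3-/-, 26.1 in the Klf4deltaEC and 38.4 in the control library, against 82.1, 93.8, 88.6 and 132 in the other proximal tubule clusters of the DKO, Nos3-/-, Klf4deltaEC and control libraries. Fgf1, a fibroblast growth factor, was at 1.39 in the DKO, 8.08 in the Nos3-/-, 3.96 in the Klf4deltaEC and 2.86 in the control library, against 10.9 to 16.6. The gap was smallest in the Nos3-/- library for both genes. Glt1d1, Fgf1, Ghr and Rnf24, among others, were highest in cluster 1 in 4 of 4 libraries, and against cluster 3 alone 11 of the 15 had a median above 0, with Ghr at 0.32 and Fgf1 at 0.56. Their direction thus depends on which proximal tubule clusters stand on the other side of the ratio.

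Before the libraries are compared, the targeted genes can be given for cluster 12. Klf4, a zinc finger transcription factor, was at 0.175 in the DKO (about 2 UMIs), 0.0267 in the Nos3-/- (about 1), 0 in the Klf4deltaEC and 0.0878 in the control library (about 1), all under the level of 3 UMIs. Nos3, the endothelial nitric oxide synthase, was at 0 in all 4 libraries, which allows levels of up to 0.298 in the DKO, 0.108 in the Nos3-/-, 0.203 in the Klf4deltaEC and 0.258 in the control library. In the pool of all nuclei Nos3 was at 0.0385 in the DKO, 0.0525 in the Nos3-/-, 0.0198 in the Klf4deltaEC and 0.0251 in the control library, so it was not lower in the libraries labelled Nos3-/-. The deleted part of the gene is not named in the labels, and a tag outside that part would check nothing. Neither gene checks the labels in this cluster, so every direction between libraries below rests on the labels alone.

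Between libraries, cluster 12 varied far more than the other proximal tubule clusters, on far fewer UMIs. A gene is called here past a log2 ratio of 1 in a pair of libraries. The 3 comparisons over the control share that library and the other 2 share the DKO library, so overlaps between them are not given. DKO over control had 855 higher (16.5%) and 607 lower (11.7%) of 5189 genes in cluster 12, and 24 higher and 11 lower of 3835 in the other proximal tubule clusters. Nos3-/- over control had 377 higher (8.05%) and 603 lower (12.9%) of 4684, and 59 higher and 83 lower of 3758 in the other clusters. Klf4deltaEC over control had 397 higher (8.17%) and 432 lower (8.89%) of 4861, and 18 higher and 8 lower of 3620. DKO over Nos3-/- had 1185 higher (23.6%) and 679 lower (13.5%) of 5030, and 116 higher and 57 lower of 3933. DKO over Klf4deltaEC had 781 higher (15.3%) and 539 lower (10.6%) of 5090, and 44 higher and 38 lower of 3862. A level of 0.5, the minimum, stands for only 5.03 UMIs in the DKO, 13.8 in the Nos3-/-, 7.39 in the Klf4deltaEC and 5.80 in the control library, so genes near the minimum carry wide counting intervals. With 1 library per genotype there is no replicate check, and library and genotype cannot be told apart.

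In the DKO library, lists of abundant proximal, ferritin, respiratory and ribosomal transcripts of cluster 12 were above the control by their sums. The sum of abundant proximal mRNAs was 551 in the DKO and 228 in the control library, a log2 ratio of sums of 1.27 (95% counting interval 1.21 to 1.34), against 0.13 in the other proximal tubule clusters. Ferritin and iron genes summed to 84.2 in the DKO and 22.4 in the control library, a ratio of 1.91 (1.70 to 2.11), against 0.66. Fth1 at 56.6 and Ftl1 at 23.6 were most of that DKO sum. The list's median ratio was 0.58, with 2 of 5 genes past 1. Nuclear respiratory genes had 23 of 26 above 0 and 12 past 1, with a ratio of sums of 1.09 against 0.36, and ribosomal genes had 13 of 28 past 1, with 0.97 against 0.61. The median over all genes was 0.05. Nuclear noncoding RNAs lay in the other direction, with a ratio of sums of -0.64 (-0.68 to -0.60) against -0.18. S3 genes had 8 of 8 above 0, with a ratio of sums of 0.80 against -0.05. Thick ascending limb markers were equal, at 50.2 in both libraries, while connecting tubule and principal markers had a ratio of -1.01 (-1.40 to -0.62) and endothelial markers -1.59 (-2.68 to -0.61).

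Single genes in that comparison rested on few UMIs. The 8 highest were Ndufc2, Scd1, Paqr9, Grik3, Ndufs5, Ethe1, Thap7 and Eif6. Ndufc2, a subunit of complex I, was at 1.52 (about 15 UMIs) in the DKO and 0.0296 in the control library, against 0.211 and 0.179 in the other proximal tubule clusters of the DKO and control libraries. Paqr9 was at 1.09 in the DKO and 0 in the control library, at least 4.20-fold higher when 3 UMIs stand for the 0. By difference from the other proximal tubule clusters, Pcbd1 and Acot2, a mitochondrial thioesterase, were added. The 8 lowest were Ebf1, P2rx7, Sorcs3, Ano3, Wbp4, Creb5, Pecam1 and Brms1l, joined by Dgkb. Ebf1, a transcription factor of stromal and B cells, was at 0 in the DKO and 1.65 in the control library (about 19 UMIs), at least 5.52-fold lower. Pecam1, an endothelial adhesion molecule, was at 0.0132 in the DKO and 1.00 in the control library, which also held the highest sum of endothelial markers, 3.42 against 1.14 in the DKO. P2rx7, an ATP-gated channel, was at 0.0820 in the DKO, 0.0269 in the Nos3-/- and 0.0931 in the Klf4deltaEC library, against 2.59 in the control library (about 30 UMIs), and its low place in each comparison rests on the control alone. Ano3 was at 1.14 in the control library from 1 nucleus.

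In the Nos3-/- library, mitochondrial, ribosomal and respiratory transcripts of cluster 12 were below the control. Mitochondrially encoded genes summed to 102 in the Nos3-/- and 221 in the control library, a ratio of -1.11 (-1.19 to -1.03), and the other proximal tubule clusters had nearly the same, -1.14. Ribosomal genes had 16 of 21 below -1 and a ratio of sums of -1.21 (-1.45 to -0.96) against -0.49, and respiratory genes 9 of 23 with -0.88 against -0.21. The median over all genes was 0.00. Injury genes, of which Spp1 is the main part in the control library, summed to 4.12 in the Nos3-/- and 16.2 in the control library, a ratio of -1.98 (-2.33 to -1.64) against -0.12. Of 6 glucocorticoid targets past the minimum, 5 were below -1, with a median of -1.5, although the sum differed by only -0.35. These targets were also lower in the other proximal tubule clusters, with 0 of 5 above 0, a median of -0.77 and a ratio of sums of -0.69. Markers of other segments did not move together: thick ascending limb markers had a ratio of -0.58 in cluster 12 and 1.06 in the other proximal tubule clusters, and connecting tubule and principal markers 0.94 and 2.71. Depth moved with this comparison, the median being 1126 UMIs in the Nos3-/- and 860.5 in the control library of cluster 12, and 3033 and 6478 in the other proximal tubule clusters of the Nos3-/- and control libraries. The part of depth in these differences was not tested.

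The 8 highest single genes of Nos3-/- over control were 2310030G06Rik, Chrm3, Adgrb3, Paqr9, Vmn1r19, Gm37988, Trmt1 and Dmgdh, with Plppr1 added by difference. Chrm3, the muscarinic receptor M3, was at 2.22 in the Nos3-/- (about 61 UMIs) and 0.212 in the control library (about 2), a log2 ratio of 2.89 (1.63 to 6.04), against 0.34 in the other proximal tubule clusters. The 8 lowest were P2rx7, Sorcs3, Ano3, Zbtb16, Cd81, Pear1, Uqcrb and Skap1. Zbtb16, a zinc finger factor induced by glucocorticoids, was at 0.207 in the Nos3-/- and 3.58 in the control library, a ratio of -3.58 (-5.68 to -2.85), and the other proximal tubule clusters had 0.114 in the Nos3-/- and 1.46 in the control library, a ratio of -2.86. Cd81, a tetraspanin, was at 0.142 in the Nos3-/- and 2.75 in the control library, with -3.56 in cluster 12 and -1.10 in the other proximal tubule clusters. Uqcrb, a subunit of complex III, was at 0 in the Nos3-/- and 0.746 in the control library, at least 6.88-fold lower.

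Klf4deltaEC over control had the fewest genes past 1 of the 5 comparisons, both directions together. Among lists of proximal function, respiratory genes had a ratio of 0.56 (0.37 to 0.75) against 0.41 in the other proximal tubule clusters, ferritin and iron genes 0.53 (0.31 to 0.75) against 0.29, and S1 and S2 transporters 0.35 (0.26 to 0.45) against -0.01, with 13 of 16 above 0. The median over all genes was -0.00. Mitochondrially encoded genes had -0.28 (-0.35 to -0.20) against 0.03, and thick ascending limb markers -0.73 (-0.91 to -0.55) against -0.41. Lists of other cell types differed more: stromal markers had -1.41 (-2.55 to -0.36) against -0.43, endothelial markers -0.83 (-1.58 to -0.10) against -0.18, connecting tubule and principal markers -0.73 (-1.06 to -0.41) against -0.53, and thin limb and urothelium markers 0.78 (0.12 to 1.47) against 0.02. The 8 highest genes were Arpc5, Sycp3, Sap30, Hnrnpdl, Gm26836, Gm37988, Synpr and Ly86, with Dmgdh added by difference, each on about 8 to 12 UMIs in the Klf4deltaEC library and at or near 0 in the control library. Synpr came from 1 nucleus. The 8 lowest were Ldb2, P2rx7, Ano3, Adamtsl1, Fhl2, Creb5, Anxa2 and Afap1l2. Ldb2, a LIM domain binding cofactor, was at 0.107 in the Klf4deltaEC (about 2 UMIs) and 3.08 in the control library (about 36), a ratio of -3.95 (-8.55 to -2.70), against -0.06 in the other proximal tubule clusters. Endothelial markers summed to 1.92 in the Klf4deltaEC and 3.42 in the control library, and stromal markers to 0.801 and 2.13 in the Klf4deltaEC and control libraries. Their part in the Ldb2 difference was not tested.

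**Figure D5:**
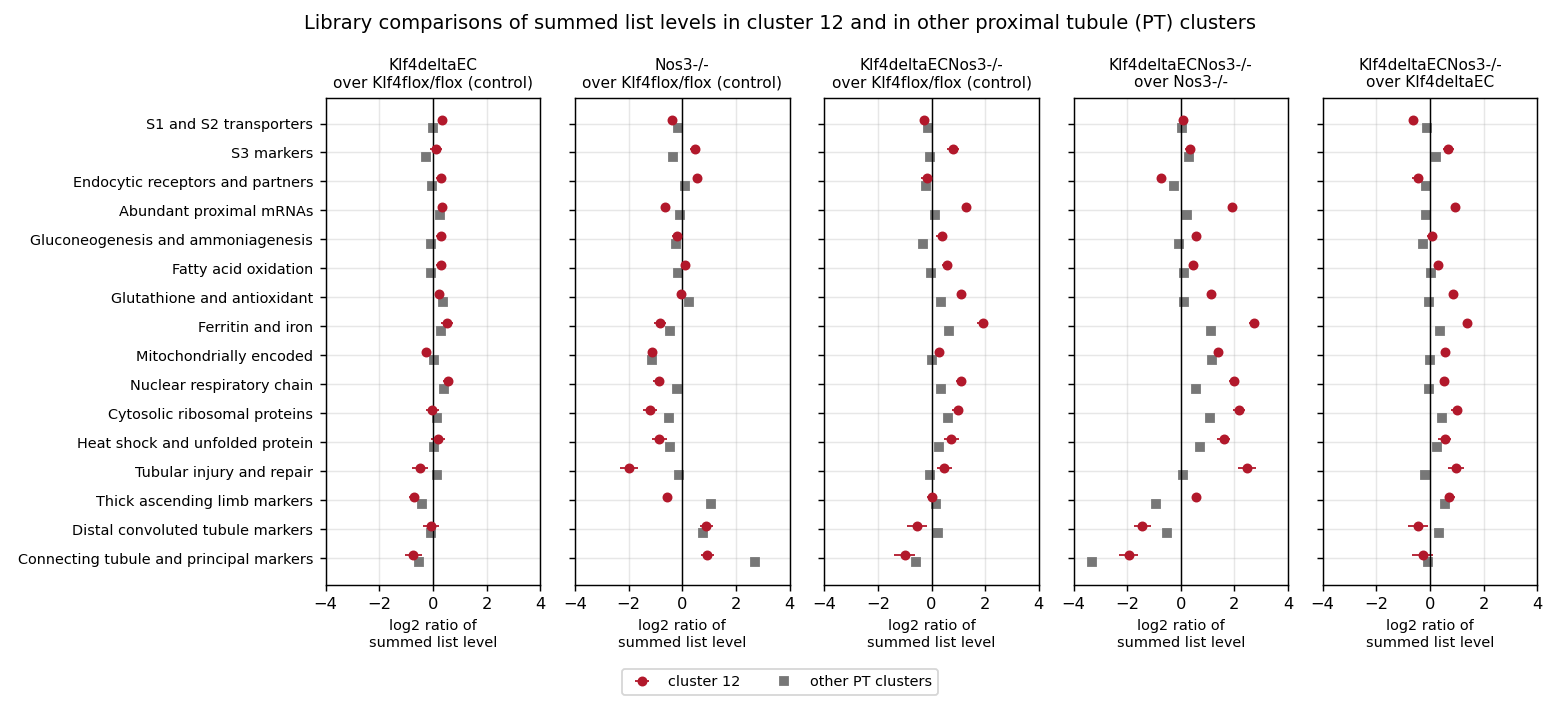
Log2 ratio of the summed level of each gene list between libraries, in cluster 12 (with 95% counting intervals) and in the other proximal tubule clusters, for the 5 comparisons. DKO over Nos3-/- has the widest gaps between both, such as 2.74 and 1.13 for ferritin and iron genes, and Klf4deltaEC over control the narrowest. The ferritin and iron sum is mostly Fth1 and Ftl1 in the DKO library, and the list's median ratio over Nos3-/- was 0.57.

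DKO over Nos3-/- spanned the widest range. Ribosomal genes had 26 of 27 past 1, with sums of 45.9 in the DKO and 10.1 in the Nos3-/- library and a ratio of 2.18 (1.96 to 2.40) against 1.11 in the other proximal tubule clusters. Respiratory genes had 19 of 25 past 1, with a ratio of sums of 1.97 against 0.56, and abundant proximal mRNAs had 1.91 against 0.23. Heat shock genes had 7 of 9 past 1, with 1.60 against 0.73. Mitochondrially encoded genes were 269 in the DKO and 102 in the Nos3-/- library, with a ratio of 1.40 in cluster 12 that was close to the 1.18 of the other proximal tubule clusters. The median over all genes was 0.02. Endocytic genes had -0.72 (-0.89 to -0.55) against -0.27, and connecting tubule and principal markers -1.94 (-2.29 to -1.61) against -3.30.

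In the other proximal tubule clusters, 2.95% of genes were past 1 upward in DKO over Nos3-/- and 1.45% downward. Of the 18 genes that the naming rule chose for this comparison, 8 were past 1 there in the same direction. The highest were Cryab, Ubb, Uqcrb, Gm11808, Ndufa1, Cd81, Fth1 and Lamtor4, with Triobp added by difference. Cryab, a small heat shock protein, was at 2.71 in the DKO and 0.0386 in the Nos3-/- library, a ratio of 4.34 (3.60 to 11.2) against 1.24. Ubb, a polyubiquitin gene, was at 8.18 in the DKO and 0.322 in the Nos3-/- library, with 4.30 (3.67 to 5.85) against 2.46. Fth1 had a ratio of 3.58 (3.33 to 3.89) on about 569 and 129 UMIs in the DKO and Nos3-/- libraries, against 2.27. Uqcrb was at 1.42 in the DKO and 0 in the Nos3-/- library, at least 13.1-fold higher, and Ndufa1, a complex I subunit, at 1.14 and 0, at least 10.5-fold higher. Among the lowest were Baz1a, Dcun1d3, Slc12a3, Pde10a, Slc8a1, Arhgef38 and Gm42397, joined by Zc3h15. Slc8a1, the sodium-calcium exchanger of the connecting tubule, was at 2.88 in the DKO and 27.9 in the Nos3-/- library, a ratio of -3.23 (-3.87 to -2.74), and the other proximal tubule clusters had 0.483 and 9.42 in the DKO and Nos3-/- libraries, a ratio of -4.03. Slc12a3, the thiazide-sensitive transporter of the distal convoluted tubule, was at 0.894 in the DKO and 9.71 in the Nos3-/- library, with -3.30 in cluster 12 and -2.37 in the other proximal tubule clusters. Gm42397, an unnamed gene, was at 2.48 in the DKO and 21.2 in the Nos3-/- library, with -3.05 (-3.74 to -2.52) in cluster 12 and -0.37 in the other proximal tubule clusters.

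In DKO over Klf4deltaEC, the sums of ferritin, abundant proximal, ribosomal and mitochondrial transcripts were on the high side and S1 and S2 transporters on the low side. Ferritin and iron genes had a ratio of sums of 1.38 (1.22 to 1.54) against 0.37 in the other proximal tubule clusters, abundant proximal mRNAs 0.93 (0.87 to 0.98) against -0.14, and ribosomal genes 0.99 (0.79 to 1.20) against 0.45, with 18 of 28 past 1. The ferritin and iron list had a median ratio of 0.75, with 2 of 5 genes past 1. Mitochondrially encoded genes had 0.56 (0.48 to 0.64) against 0.00. S1 and S2 transporters had -0.65 (-0.76 to -0.54) against -0.13, with 5 of 16 below -1 and 1 above 1, and the median over all genes was 0.07. The highest genes were Pigr, Bap1, Ttr, 6030458C11Rik, Abca2, Srxn1, 4732465J04Rik and Vdac3, with Egfem1 added by difference. Pigr, the receptor that carries polymeric immunoglobulins across epithelia, was at 2.67 in the DKO and 0.0601 in the Klf4deltaEC library, a ratio of 4.12 (2.76 to 11.4) against 0.11. Ttr, the thyroxine carrier transthyretin, was at 2.21 in the DKO and 0.134 in the Klf4deltaEC library, with 3.30 (2.01 to 7.20) against 0.29. The lowest were Dgkb, Col4a6, Emcn, Itpkb, Mad1l1, Gm26836, Sycp3 and Zc3h15. Itpkb, an inositol phosphate kinase, was at 0.135 in the DKO and 1.80 in the Klf4deltaEC library, with -3.01 (-7.91 to -1.42) against 0.56. Emcn, an endothelial sialomucin, was at 0.0265 in the DKO and 0.972 in the Klf4deltaEC library, beside endothelial marker sums of 1.14 in the DKO and 1.92 in the Klf4deltaEC library.

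Over the 5 comparisons, none of the genes chosen by the naming rule lay past 1 in the opposite direction in the other proximal tubule clusters. Over all genes compared there, 0.22% to 2.95% were past 1 in a given direction, so few opposite calls could arise. Some chosen genes were also picked by difference from those clusters, so this count tests nothing. The chosen genes reached past 1 in the same direction there in 0 of 17 cases for Klf4deltaEC over control, 4 of 17 for Nos3-/- over control, 0 of 19 for DKO over control, 8 of 18 for DKO over Nos3-/- and 0 of 17 for DKO over Klf4deltaEC. For the chosen genes the higher library held about 7 to 61 UMIs in the other 4 comparisons and about 7 to 773 in DKO over Nos3-/-.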

How the data were processed

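Nuclei from perfused, RNALater-stored kidney cortex were run on the 10x Chromium system, per the labels' protocols. Cell Ranger, Seurat and the mm10 build are named in the submitters' processing notes. Versions, filters, the clustering and the treatment of doublets are not given there or in the labels. The authors deposited 1 matrix of a signal, normalized expression per gene for 92 columns, 23 clusters in each of 4 libraries, with 21046 genes. Each column sums to 10000. The matrix holds no cell barcodes, so shared barcodes were not counted.

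The number of nuclei in a column was recovered as the number that made low values whole fractions of 10000 per UMI. In cluster 12, single-nucleus totals were recovered for 616 of 692 nuclei (89.0%), the lowest being 380 UMIs. The recovery was tried on 24 simulated columns, for cluster 12 and the other proximal tubule clusters, with totals drawn from the recovered ones. The number of nuclei was exact in 24. The harmonic mean of UMIs per nucleus was off by up to 17.1% over these columns and by up to 1.95% in cluster 12. Because its totals came from the recovery, the simulation cannot show that the totals of the real columns are right. UMI numbers per gene are approximate, being the level divided by the level of 1 UMI, because each nucleus is scaled before the mean is taken.

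The other proximal tubule clusters were averaged with weights by nuclei. Log2 ratios of single genes add 0.1 to each level, whereas ratios of list sums add nothing. A gene had to reach 0.5 in either side, and the limit was a ratio of 1 in size. With 1 library per genotype no test was run. Poisson, binomial and ratio intervals use exact formulas at 95%, applied for levels and ratios to the approximate UMI numbers. The interval of a single-gene ratio is for levels without the added 0.1, so it is not centred on the ratio printed. Gene spans came from the GRCm38 annotation, with 99.0% of the 3442 genes matched. Named genes were the 15 highest and 15 lowest median ratios with 1 sign in the 4 libraries, and, for each of 5 library comparisons, the 8 highest, the 8 lowest and the 4 at either end by difference from the other proximal tubule clusters. One gene chosen by this rule is not reported here. Listed genes could also be named. The members and the gene lists were chosen with earlier results of these data known. Alternatives were another pseudocount and minimum, other scalings, single proximal tubule clusters, the pool of all nuclei and leaving out each library. Python 3.11.15, numpy 2.4.6, pandas 2.3.3, scipy 1.17.1 and matplotlib 3.10.9 were used.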

Additional observations from a re-analysis of the deposited data

How the results depend on the processing

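No paired analysis was possible because each genotype has 1 library. Cluster 12 holds few UMIs, so genes near the minimum level are the least certain. Median-ratio scaling and scaling without mitochondrial and ribosomal genes kept the counts of higher and lower genes within 1.5 times of those reported. The causes of the changes below were not tested.

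Against the other proximal tubule clusters, 210 higher and 143 lower genes became 139 and 73 with a pseudocount of 0.5, and 747 and 223 without a minimum level. With a minimum of 1, 99 were higher. Against cluster 0 alone 234 were lower, and against cluster 1 alone 371 were higher and 373 lower. Leaving out 1 library gave 214 to 395 higher and 128 to 245 lower genes, both counts being highest without the Nos3-/- library. The median span of higher genes was then 12.3 to 23.3 kb and of lower genes 80.9 to 93.6 kb. It was 34.6 kb for higher genes against cluster 1 alone, and 59.1 kb for lower genes without a minimum.

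The pool of all nuclei as the other side of the ratio was chosen after seeing the data. It gave 80 lower genes, with spans of 7.28 kb for higher and 188 kb for lower genes. It reversed the medians of the thick ascending limb (-0.60), connecting tubule and principal (-0.71) and intercalated (-0.71) lists. It also reversed Slc12a1 (-0.79), Erbb4 (-0.66), Mecom (-1.34), Cacnb2 (-0.36), Slit2 (-0.68), Egf (-0.70), Phactr1 (-0.92), Sox5 (-0.82), Slc16a7 (-0.44), Sgcz (-0.23), Tmem117 (-1.01), Tfap2b (-0.0082), Rbms3 (-0.82) and Prdm16 (-1.37).

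Cluster 3 alone reversed Glt1d1 (0.90), AC163354.1 (0.24), Gm42397 (1.10), Fgf1 (0.56), Chrm3 (1.21), Gsap (0.45), Ghr (0.32), Rnf24 (1.58), 4930533I22Rik (2.61), Arhgap26 (0.25) and Cntnap5a (1.45). Cluster 5 alone reversed Glt1d1 (0.84), AC163354.1 (0.34), Fgf1 (0.25), Chrm3 (1.66), Rnf24 (1.48), 4930533I22Rik (2.31) and Cntnap5a (0.60), and cluster 6 alone Chrm3 (0.76) and Rnf24 (0.63).

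Between libraries, the pseudocount of 0.5 left 315 higher and 216 lower genes for DKO over control, 107 and 184 for Nos3-/- over control, 102 and 90 for Klf4deltaEC over control, 583 and 294 for DKO over Nos3-/-, and 248 and 178 for DKO over Klf4deltaEC. A minimum of 1 left 416 and 276 for DKO over control, 198 and 238 for Nos3-/- over control, 124 and 130 for Klf4deltaEC over control, 597 and 441 for DKO over Nos3-/-, and 357 and 251 for DKO over Klf4deltaEC. No minimum gave 2079 and 1918 for DKO over control, 1023 and 1889 for Nos3-/- over control, 1375 and 1602 for Klf4deltaEC over control, 2503 and 1499 for DKO over Nos3-/-, and 2004 and 1687 for DKO over Klf4deltaEC. It also turned the median of macrophage and lymphocyte genes to 0.069 for Nos3-/- over control. All 440 values of the named genes between libraries kept their direction and stayed past 1 under the alternatives run. This is a weak check, because the minimum level does not enter a single gene's ratio. These genes were also chosen for their extreme ratios.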
